A study of Mus musculus with 12 samples.

Results

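The syndecans and glypicans are the cell surface proteoglycans that carry heparan sulphate. All 10 mouse genes of these families were taken, Sdc1 to Sdc4 and Gpc1 to Gpc6, and every probe listed under one of these symbols was included, which gave 16 of the 46632 probes and 10 of the 34509 gene symbols on the array. RNA came from cartilage of the femoral head of 21-day-old TS-4/5∆cat mice, in which exon 4 of Adamts4 and exon 3 of Adamts5 are deleted in frame. This deletion was shared by all groups, and no wild-type cartilage was included. Explants, 4 hips per well, were kept untreated or were given 10 ng/ml IL-1α or 10 µM retinoic acid for 3 days, with 4 arrays for each of the 3 treatments. Each treatment had 2 arrays from mice labelled Donut, which made up batch 1, and 2 arrays from mice labelled Gertrude, which made up batch 2, so line and batch cannot be told apart. The labels place a 24 h preculture in 10% serum before treatment, whereas the methods of the study describe serum-free culture. The methods also name 3 unpooled mice per treatment without saying which arrays they gave, so the p-values measure the spread between these arrays, which may be partly technical.

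Syndecans span the cell membrane, whereas glypicans are held on its outer face by a lipid anchor. The heparan sulphate chains on both bind fibroblast growth factors, Wnts, hedgehogs and bone morphogenetic proteins, and so set how much ligand reaches its receptors. In growing cartilage, heparan sulphate limits the spread of hedgehog signals in the growth plate, syndecan-3 is known from proliferating chondrocytes and syndecan-4 from the response of chondrocytes to cartilage injury. Proteinases can shed syndecan ectodomains from the cell, and glypicans can be released by cleavage of their anchor.

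Promoter sequence from RefSeq (GRCm38.p6) was on hand for 7 of the 10 genes, and the 250 bases before the annotated gene start are shown for 3 of them, 5′ to 3′ on the gene's strand. Sdc1 is shown because it was higher with both treatments, Sdc4 because it holds matches for both kinds of motif that occurred, and Gpc2 because it was detected only with retinoic acid. Capitals mark matches, on either strand, to the retinoid receptor half-site AGGTCA or to the NF-κB consensus, which do not overlap here.
Sdc1 (chr12:8771146-8771395, + strand): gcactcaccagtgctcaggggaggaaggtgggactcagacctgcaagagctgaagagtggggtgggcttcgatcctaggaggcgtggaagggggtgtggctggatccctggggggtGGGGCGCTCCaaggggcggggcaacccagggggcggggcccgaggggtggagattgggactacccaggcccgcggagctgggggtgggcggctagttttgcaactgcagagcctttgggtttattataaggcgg
Sdc4 (chr2:164443189-164443438, - strand): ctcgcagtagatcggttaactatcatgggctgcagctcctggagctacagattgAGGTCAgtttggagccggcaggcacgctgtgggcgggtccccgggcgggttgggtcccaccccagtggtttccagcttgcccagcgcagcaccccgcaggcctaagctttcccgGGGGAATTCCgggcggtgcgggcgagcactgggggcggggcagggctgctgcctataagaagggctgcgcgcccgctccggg
Gpc2 (chr5:138279938-138280187, - strand): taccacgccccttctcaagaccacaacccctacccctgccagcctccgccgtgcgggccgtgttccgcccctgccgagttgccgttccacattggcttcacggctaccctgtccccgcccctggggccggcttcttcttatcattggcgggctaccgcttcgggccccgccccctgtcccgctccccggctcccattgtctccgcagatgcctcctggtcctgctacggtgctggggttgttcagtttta

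The Sdc1 sequence holds an NF-κB consensus match 134 to 125 bases before the gene start. The Sdc4 sequence holds a half-site 196 to 191 bases and an NF-κB match 82 to 73 bases before the start, and the Gpc2 sequence holds neither. Among the 7 genes the half-site occurred in 2, Sdc4 and Gpc4, and the NF-κB consensus in 2, Sdc1 and Sdc4. The AP-1 motif TGANTCA occurred in none of them. Over all 32851 RefSeq promoter windows, the same 250 bases held the half-site in 14%, the NF-κB consensus in 7.25% and the AP-1 motif in 6.75%. The motifs were chosen after the sequences had been seen, and a match is a description of letters only.

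The arrays detected 13786 to 19485 probes each, 13786 to 14965 in batch 1 and 16732 to 19485 in batch 2, and the second untreated array of batch 2 stood apart with the highest number. Arrays of the same treatment and batch correlated at 0.9833 to 0.9947 across probes. Levels are given as log2 intensity after background correction and quantile normalization of all arrays, and the lowest detected level of an array lay between 4.86 and 5.48. Cartilage markers were bright in untreated explants (Col2a1 13.59 ± 0.39 and Acan 13.26 ± 0.16, SD, n = 4), although the probe of Matn3 was undetected on all arrays, and haemoglobin was also bright (Hbb-b1 13.68 ± 0.32). The retinoic acid target Cyp26a1 was detected on all 4 retinoic acid arrays and on no other array, at least 19.2-fold above untreated, and the IL-1 target Nos2 on all 4 IL-1α arrays and on no other, at least 14.1-fold above untreated. Cyp26b1 and Rarb were also higher with retinoic acid (3.94 and 2.92 on the log2 scale) and Cxcl1 with IL-1α (3.47), while Mmp3 differed by 0.64 with IL-1α (limma adjusted p = 0.0851). The probe of Adamts4 was detected on all 12 arrays and that of Adamts5 on 1, and since their position relative to the deleted exons is not known they check nothing.

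A probe was tested when its detection p was under 0.05 on at least 4 arrays. All 5 syndecan probes and 4 of the 11 glypican probes met this, 9 probes for 7 genes, and 8 probes were detected on all 12 arrays. Differences are from limma, with p-values adjusted over all 18200 tested probes and a difference called at an adjusted p under 0.05. With retinoic acid 7 of the 9 probes were called against untreated, where 35.4% of all tested probes were called, and with IL-1α 6 of 9 were called, where 29.3% were. Without the untreated array that stood apart the numbers were again 7 and 6, with no share of all tested probes computed for that setting. Both comparisons share the untreated arrays. The median difference of the 9 probes was -0.23 with retinoic acid and -0.07 with IL-1α, against 0.02 for all tested probes in each comparison. The probes moved in both directions. Of the 9, 4 were higher and 3 lower with retinoic acid (18.2% and 17.1% of all tested probes), and 4 were higher and 2 lower with IL-1α (15.2% and 14.1%). Sdc1 and Gpc1, by both probes of each, were called higher with both treatments (6.27% of all tested probes), and Gpc6 was called lower with both (7.92%).

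**Figure D1:**
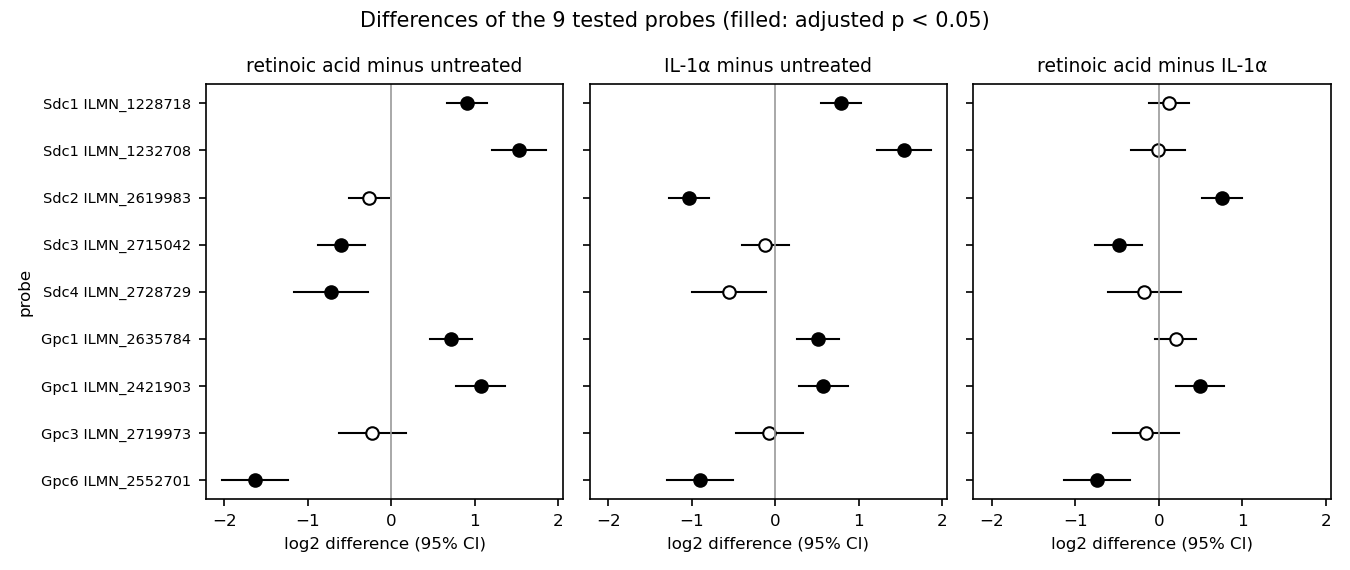
Differences of the 9 tested syndecan and glypican probes in log2 intensity, as points with 95% confidence intervals from limma (4 arrays per treatment), for retinoic acid minus untreated, IL-1α minus untreated and retinoic acid minus IL-1α. Filled points passed an adjusted p of 0.05: Sdc1 and Gpc1 lie to the right of 0 in both comparisons with untreated, Gpc6 to the left in all 3, and Sdc2 stands out to the left with IL-1α.

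Among the syndecans, Sdc1, best known from epithelia and plasma cells, showed the largest rise. Its probe ILMN_1232708 measured 5.38 and 5.54 in batch 1 and 6.39 and 5.92 in batch 2 on the untreated arrays. With IL-1α it measured 7.49 and 7.21, then 7.59 and 7.10, and with retinoic acid 7.28 and 7.06, then 7.64 and 7.36. Every treated array was above every untreated array, and the treated groups overlapped each other. The difference from untreated was 1.53 with retinoic acid (2.88-fold, SE 0.15, limma adjusted p = 4.56e-06) and 1.54 with IL-1α (2.91-fold, SE 0.15, limma adjusted p = 1.03e-05). Retinoic acid and IL-1α differed by -0.01, with a 95% interval of -0.34 to 0.31 (limma adjusted p = 0.961).

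The second Sdc1 probe, ILMN_1228718, gave 6.32, 6.34, 6.99 and 6.90 on the untreated arrays, in the same order. It gave 7.13, 7.17, 7.70 and 7.70 with IL-1α and 7.43, 7.30, 7.75 and 7.69 with retinoic acid. The groups were again separate from untreated, with differences of 0.91 with retinoic acid (limma adjusted p = 3.18e-05) and 0.79 with IL-1α (limma adjusted p = 0.000191). Retinoic acid and IL-1α differed by 0.12, with an interval of -0.12 to 0.36. Both Sdc1 probes were higher with each treatment than untreated, with a larger difference on ILMN_1232708. Their levels correlated at 0.953 over the 12 arrays after the batch means were subtracted. In whole explants fewer cells of a type and less RNA per cell cannot be told apart, for Sdc1 as for every gene here.

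Every other gene symbol was represented by its brightest tested probe. Of these probes, those most like ILMN_1232708 over the 12 arrays, after subtraction of batch means, belonged to Tsc22d1 (r = 0.985), 1110032E23Rik (r = 0.984) and Atp6ap2 (r = 0.976). These arrays share treatments, so the correlations are descriptions. Tsc22d1, which encodes a leucine zipper regulator of transcription, differed from untreated by 1.99 with retinoic acid and 2.17 with IL-1α. Atp6ap2, which encodes an accessory subunit of the vacuolar proton pump, differed by 0.88 and 0.97.

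Sdc2, a syndecan of mesenchymal and endothelial cells, was the one member that fell with IL-1α and was not called with retinoic acid. Its untreated levels were 9.71, 9.95, 10.54 and 10.40. IL-1α gave 8.79, 8.83, 9.44 and 9.42, below every untreated array, while retinoic acid gave 9.54, 9.46, 10.39 and 10.12, within the untreated range or just under it. Within each batch both retinoic acid arrays were below both untreated arrays, with differences of -0.33 in batch 1 and -0.21 in batch 2. The fall with IL-1α was -1.03 (0.49-fold, SE 0.11, limma adjusted p = 2.48e-05), and it was -1.02 in batch 1 and -1.04 in batch 2. The difference with retinoic acid was -0.27 (limma adjusted p = 0.0764), and it passed 0.05 with no background correction, with an offset of 50 and without the filter (limma adjusted p = 0.0393, 0.0297 and 0.0269). The direct comparison placed retinoic acid 0.76 above IL-1α (limma adjusted p = 0.000164), with no overlap between the 4 arrays of each.

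Endothelial markers also fell with IL-1α. Of 5, 3 were called lower, Pecam1, Cdh5 and Emcn, beside 14.1% of all tested probes. The mean level over the 5 genes was 7.75 to 7.90 on untreated arrays, 6.94 to 7.31 with IL-1α and 7.74 to 7.98 with retinoic acid. The part of these markers in the Sdc2 difference was not tested.

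Sdc3, which is abundant in limb mesenchyme and immature chondrocytes, fell with retinoic acid. Untreated arrays gave 12.63, 12.65, 11.91 and 12.42, IL-1α arrays 12.45, 12.46, 12.19 and 12.03, and retinoic acid arrays 12.12, 12.12, 11.50 and 11.47. Within each batch both retinoic acid arrays were below both untreated arrays, although the groups overlapped across batches. The difference with retinoic acid was -0.60 (0.66-fold, SE 0.13, limma adjusted p = 0.00292), and under median scaling it was -0.43 and missed the threshold (limma adjusted p = 0.0552). With IL-1α the difference was -0.12, with an interval of -0.40 to 0.16 (limma adjusted p = 0.528). Retinoic acid minus IL-1α gave -0.48 (limma adjusted p = 0.013), which was not called without the first IL-1α array of batch 2 (limma adjusted p = 0.0667), without the second retinoic acid array of batch 2 (limma adjusted p = 0.0516) or under median scaling (limma adjusted p = 0.12).

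Sdc4, the syndecan of focal adhesions that works with protein kinase C alpha, had the least even replicates. Untreated arrays gave 11.25 and 11.29 in batch 1 but 9.96 and 11.04 in batch 2. IL-1α gave 11.12, 11.12, 9.44 and 9.66, and retinoic acid 10.82, 10.85, 9.62 and 9.35. The higher of the untreated values in batch 2 came from the array that stood apart in detected probes. The difference with retinoic acid was -0.73 (0.60-fold, SE 0.20, limma adjusted p = 0.0141) and with IL-1α -0.55 (limma adjusted p = 0.0592). Without the second untreated array of batch 2 the retinoic acid difference was -0.43 (limma adjusted p = 0.0315) and the IL-1α difference -0.25 (limma adjusted p = 0.197). The retinoic acid call was lost without the second retinoic acid array of batch 2 (-0.54, limma adjusted p = 0.0661), under median scaling (-0.44, limma adjusted p = 0.218) and without the filter (limma adjusted p = 0.0916). Without that same retinoic acid array the IL-1α difference was called (-0.55, limma adjusted p = 0.0383). It was also called with no background correction and among probes detected on all 12 arrays (limma adjusted p = 0.0456 and 0.0425). Retinoic acid and IL-1α differed by -0.17, with an interval of -0.62 to 0.27.

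**Figure D2:**
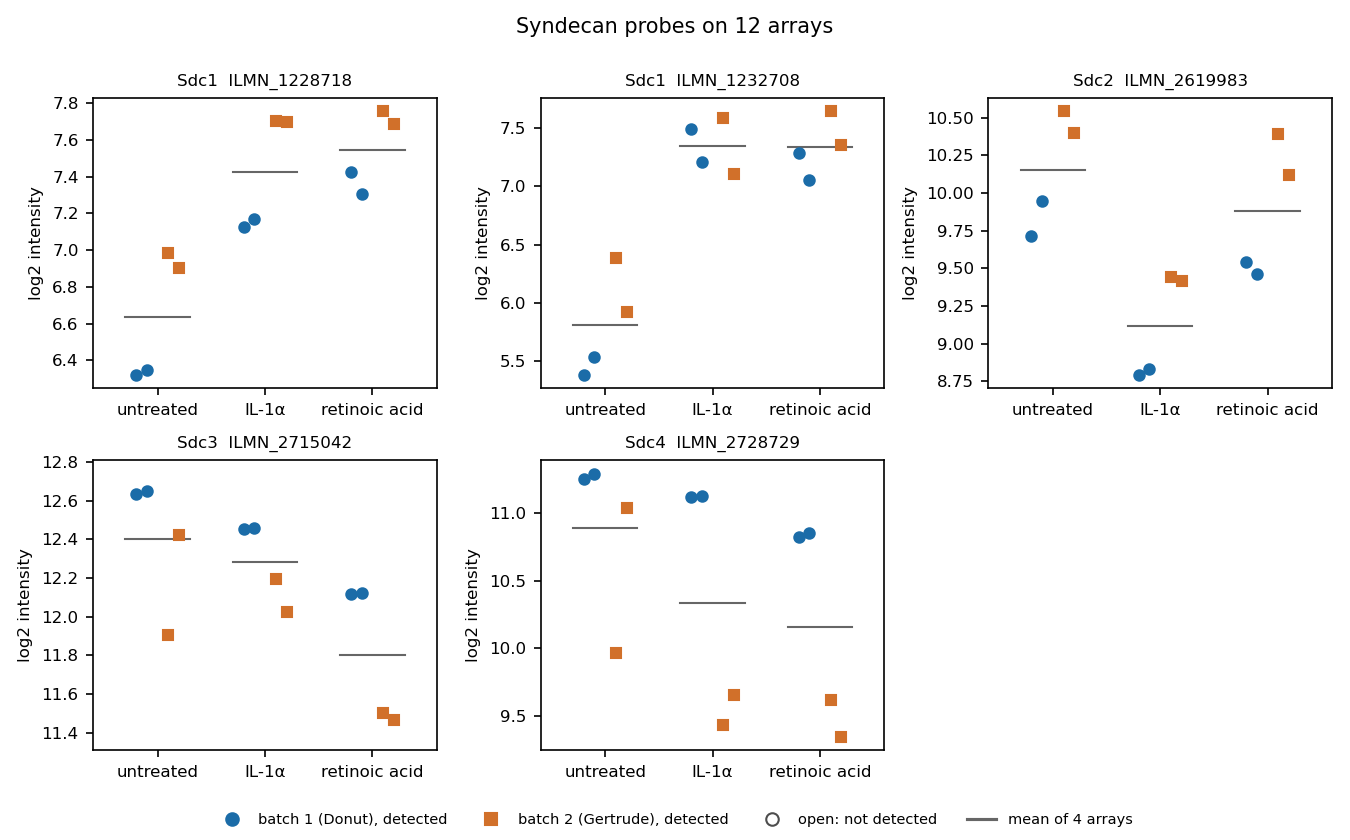
Log2 intensity of the 5 syndecan probes on each of the 12 arrays by treatment, with circles for batch 1, squares for batch 2 and a line at the mean of 4 arrays (the y axes differ and do not start at 0). All treated arrays lie above the untreated ones for both Sdc1 probes, the IL-1α arrays lie lowest for Sdc2, and the untreated arrays of batch 2 are far apart for Sdc4.

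Chondrocyte markers fell in the same comparisons. Of the 7 tested, all 7 were lower with retinoic acid (median -2.83) and 5 with IL-1α (median -0.82). Over all tested probes, 18.2% were called higher and 17.1% lower with retinoic acid, and 15.2% and 14.1% with IL-1α. The mean level of the 8 marker genes was 10.75 to 11.62 on untreated arrays, 9.97 to 11.02 with IL-1α and 8.31 to 9.37 with retinoic acid. Their part in the falls of Sdc3, Sdc4 and Gpc6 was not tested. Macrophage markers went the other way with retinoic acid, with 3 of 5 higher and none lower, while 2 were higher and 2 lower with IL-1α. The mean level of the macrophage list was 8.12 to 8.49 on untreated arrays, 8.53 to 8.82 with IL-1α and 8.61 to 8.97 with retinoic acid, and its part in the rises of Sdc1 and Gpc1 was not tested. Osteoblast markers were lower with both treatments in 3 of 3 tested genes, at a mean level of 9.40 to 9.98 on untreated arrays, 8.32 to 8.98 with IL-1α and 8.33 to 8.77 with retinoic acid. Of 4 skeletal muscle genes 2 were tested, with 1 lower with retinoic acid and 2 with IL-1α, at a mean level of 5.35 to 5.93, 4.99 to 5.34 and 5.03 to 5.33 in the same order of groups. The 4 blood genes gave no call against untreated (mean level 11.70 to 11.75, 11.91 to 12.37 with IL-1α and 11.04 to 12.05 with retinoic acid).

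Among the glypicans, Gpc1, which is widely expressed and binds fibroblast growth factors, rose with both treatments. The bright probe ILMN_2635784 gave 12.84, 12.88, 12.83 and 12.48 on untreated arrays. It gave 13.39, 13.45, 13.23 and 13.01 with IL-1α and 13.47, 13.50, 13.45 and 13.45 with retinoic acid. Every treated array exceeded every untreated array, and the retinoic acid arrays spanned a narrower range than the other groups. The difference was 0.71 with retinoic acid (1.64-fold, SE 0.11, limma adjusted p = 0.000309) and 0.51 with IL-1α (1.43-fold, limma adjusted p = 0.00487), and between the treatments it was 0.20 with an interval of -0.05 to 0.45. These levels lie near the top of the normalized scale, 14.24.

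The dim Gpc1 probe, ILMN_2421903, was detected on 2 of 4 untreated arrays and on all treated arrays. It gave 5.12, 5.52, 4.98 and 5.26 untreated, 6.17, 6.04, 5.48 and 5.51 with IL-1α and 6.54, 6.58, 6.04 and 5.99 with retinoic acid. The retinoic acid arrays were all above the untreated ones, whereas the 2 IL-1α arrays of batch 2 were just below the highest untreated array. Differences were 1.07 with retinoic acid (2.10-fold, limma adjusted p = 4.33e-05) and 0.58 with IL-1α (limma adjusted p = 0.00639), the latter not called under median scaling (limma adjusted p = 0.0636). On this probe retinoic acid exceeded IL-1α by 0.49 (limma adjusted p = 0.0139), a call that the bright probe did not share. It was lost without the first retinoic acid array of batch 1 (limma adjusted p = 0.0533) and without the second IL-1α array of batch 2 (limma adjusted p = 0.0513).

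Gpc6, a glypican whose loss causes short limbs in humans, had the largest fall. Untreated levels were 9.78 and 9.35 in batch 1 and 8.61 and 8.61 in batch 2. IL-1α gave 8.29, 8.41, 8.10 and 7.97, and retinoic acid 8.16, 8.05, 6.76 and 6.85. No treated array reached the lowest untreated array, and in both batches the retinoic acid arrays were below the IL-1α arrays. The difference was -1.63 with retinoic acid (0.32-fold, SE 0.18, limma adjusted p = 1.46e-05) and -0.90 with IL-1α (0.54-fold, limma adjusted p = 0.00279). Retinoic acid against IL-1α gave -0.74 (limma adjusted p = 0.00744), which was not called without the filter (limma adjusted p = 0.0561).

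Gpc3, known for restraining hedgehog signals and growth, was detected on all arrays by the probe ILMN_2719973 and was called in none of the 3 comparisons. It gave 6.69, 6.82, 6.79 and 6.41 untreated, 7.02, 7.12, 6.14 and 6.14 with IL-1α and 6.53, 6.35, 6.41 and 6.51 with retinoic acid. The IL-1α arrays of batch 1 were the highest of all and those of batch 2 the lowest. The difference with retinoic acid was -0.23 (95% interval -0.62 to 0.17) and with IL-1α -0.07 (95% interval -0.47 to 0.33). The other Gpc3 probe, ILMN_1223663, was undetected on all arrays.

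Gpc2, first known from the developing nervous system, was detected on 2 arrays, both of them retinoic acid arrays of batch 2. They gave 6.21 and 6.25, while the other 10 arrays lay between 4.46 and 4.67. In batch 2 retinoic acid was at least 2.41-fold above untreated and at least 2.27-fold above IL-1α, and in batch 1 all 6 arrays were undetected. The probe did not pass the filter.

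Gpc4, a glypican linked to Wnt and bone morphogenetic protein signals, was detected by ILMN_1258035 on 3 arrays of batch 2, both untreated arrays (5.33 and 5.21) and the first IL-1α array (5.33). The remaining IL-1α array of batch 2 gave 4.86 and the retinoic acid arrays 4.78 and 4.95, all undetected, and the 6 arrays of batch 1 lay between 4.40 and 4.62. Its other probe and the 3 probes of Gpc5 were undetected on every array. In the RefSeq annotation Gpc4 lies next to Gpc3, and Gpc5 next to Gpc6, with 0 protein-coding genes between the members of each pair. Within both pairs one gene was detected on all arrays and its neighbour on 3 or none.

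**Figure D3:**
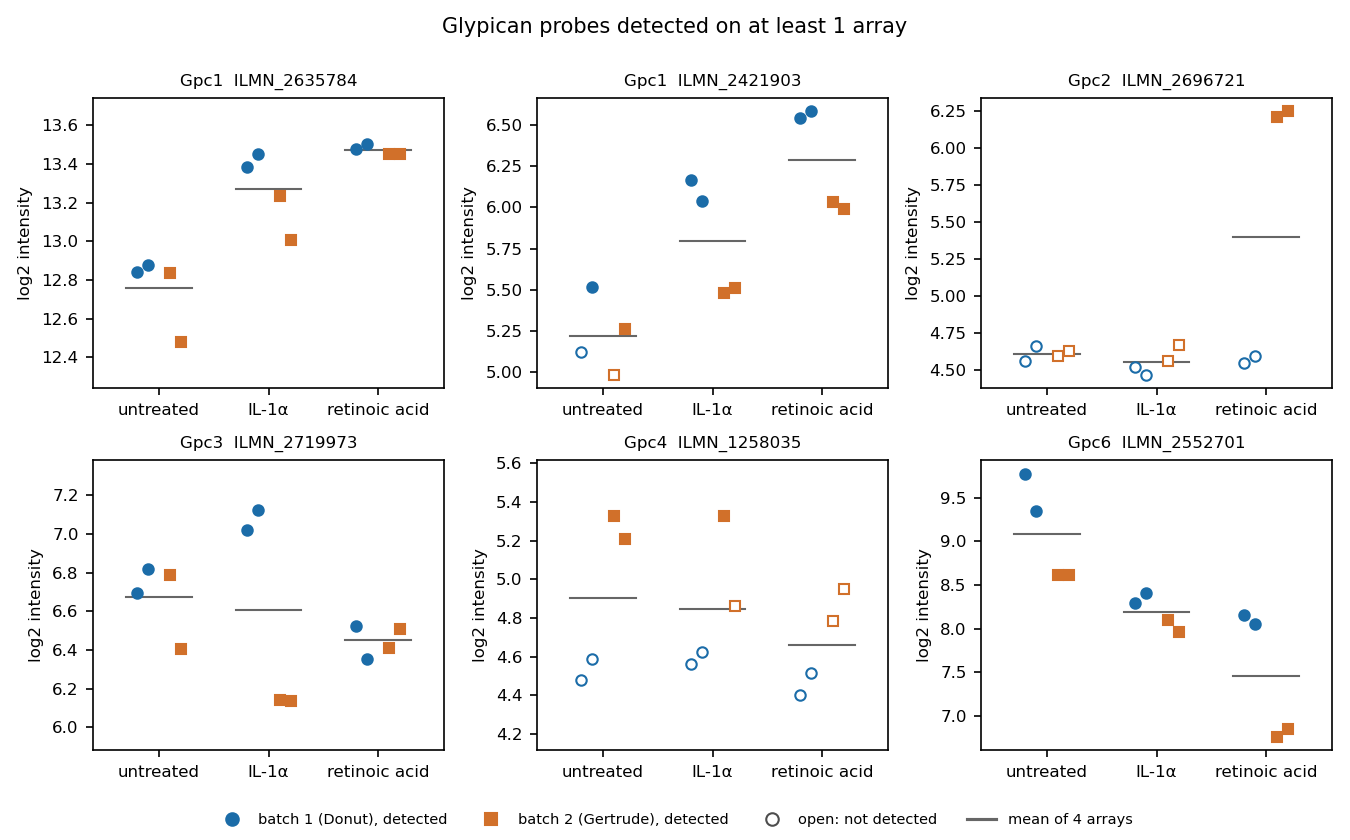
Log2 intensity of the 6 glypican probes that were detected on at least 1 array, on each of the 12 arrays by treatment, with circles for batch 1, squares for batch 2, open symbols where the probe was not detected and a line at the mean of 4 arrays (the y axes differ and do not start at 0). Gpc1 rises and Gpc6 falls with both treatments, and Gpc2 is detected only on the retinoic acid arrays of batch 2.

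The treatments were also compared directly. Of the 9 probes, 4 were called between retinoic acid and IL-1α (31.1% of all tested probes), with Sdc2 and the dim Gpc1 probe higher and Sdc3 and Gpc6 lower with retinoic acid. The groups did not overlap for 1 probe, Sdc2 (17.7% of all tested probes), and the median of the 9 was -0.01 against -0.03 for all tested probes. Against untreated, 5 of 9 probes did not overlap with retinoic acid (16.9%) and 5 with IL-1α (13.5%). Each such probe had an exact two-sided permutation p of 0.0286, the smallest that 4 arrays against 4 can give. This test exchanged arrays across the batches and so ignored batch.

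The batches differed in level for most members, as they did for most tested probes. Of the 9 probes, 8 were called between batch 2 and batch 1 with treatment in the model, where 76.3% of all tested probes were called. Of them 3 were higher in batch 2 (33.4% of all tested probes) and 5 lower (42.9%). Both Sdc1 probes were higher in batch 2 (0.51 and 0.34), as was Sdc2 (0.67). Sdc4 was lower by the widest margin (-1.23, SE 0.16, limma adjusted p = 5.52e-06), followed by Gpc6 (-0.86). Sdc3 (-0.49), the dim Gpc1 probe (-0.45) and Gpc3 (-0.36) were also lower in batch 2. The bright Gpc1 probe differed by -0.18 (limma adjusted p = 0.0969), which became a call without the first untreated array of batch 2 (limma adjusted p = 0.0408). These sizes moved with the scaling. Under median scaling the median over all tested probes moved from -0.13 to 0.51, the Sdc1 probes were at 1.40 and 1.13, Sdc2 at 1.37 and Sdc4 at -0.64. Sdc3, the dim Gpc1 probe and Gpc3 changed sign there (0.03, 0.17 and 0.52), the bright Gpc1 probe was at 0.23, and the Gpc6 call was lost (-0.01, limma adjusted p = 0.945). With the median taken over detected probes, a scaling chosen after seeing the data that put the median over all tested probes at -0.30, the bright Gpc1 probe was called lower (-0.58, limma adjusted p = 8.93e-05) and the Gpc3 call was lost (-0.29, limma adjusted p = 0.0557). The call of Sdc1 ILMN_1232708 was lost when any 1 of 6 arrays was left out (both untreated arrays and the second retinoic acid array of batch 1, and the first array of each treatment in batch 2), with a limma adjusted p of up to 0.0984. That of Gpc3 was lost without any 1 of the 4 IL-1α arrays or the second untreated array of batch 2 (limma adjusted p up to 0.0853).

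The treatment differences had the same sign in both batches for 9 of 9 probes with retinoic acid, 8 of 9 with IL-1α and 7 of 9 between the treatments. The share of all tested probes with the same sign was not computed, and Sdc1 and Gpc1 are each counted by both probes. A difference of effect between batches was called for none of the 9 with retinoic acid or with IL-1α against untreated, and for 2 between the treatments (2.86%, 4.82% and 8.76% of all tested probes). At an unadjusted p under 0.05 the numbers were 0, 4 and 2 of the 9, beside 14.3%, 20.7% and 23.7% of all tested probes. For Gpc3, retinoic acid minus IL-1α was -0.63 in batch 1 and 0.32 in batch 2, a difference of 0.95 (limma adjusted p = 0.0145). For Gpc6 it was -0.24 in batch 1 and -1.23 in batch 2, a difference of -0.99 (limma adjusted p = 0.0129). The Gpc3 call was lost without the second retinoic acid or the second IL-1α array of either batch (limma adjusted p = 0.0538 to 0.0773). The Gpc6 call was lost without the first retinoic acid array of either batch, without the first IL-1α array of batch 1 (limma adjusted p = 0.058 to 0.064), and under median scaling (-0.45, limma adjusted p = 0.312). Some differences became calls when 1 untreated array was left out. Without the first of batch 2, Sdc4 differed between batches by -1.13 with retinoic acid and -1.35 with IL-1α (limma adjusted p = 0.0126 and 0.00569). Without the second of batch 2, Gpc3 differed by -0.96 with IL-1α (limma adjusted p = 0.0134), and without the second of batch 1, Gpc6 differed by 0.84 with IL-1α (limma adjusted p = 0.0413).

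**Figure D4:**
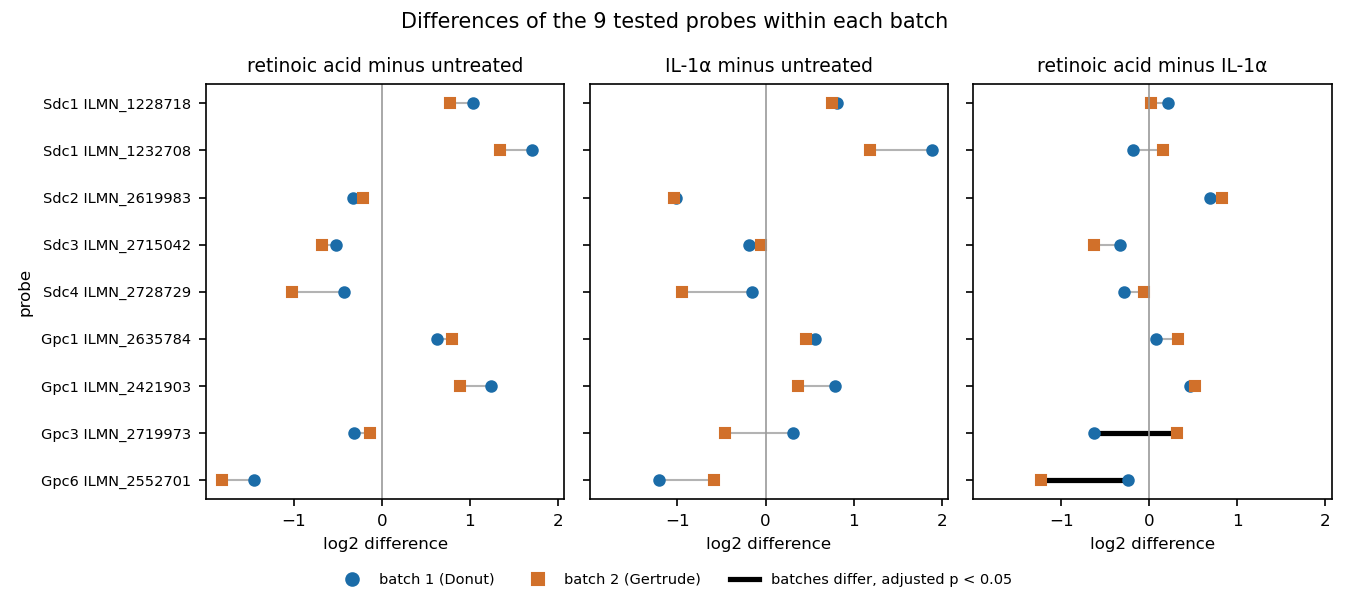
Differences of the 9 tested probes in log2 intensity within batch 1 (circles) and within batch 2 (squares), 2 arrays per treatment and batch, for the 3 comparisons. A heavy line marks the 2 probes whose difference was not the same in both batches at an adjusted p of 0.05, Gpc3 and Gpc6 in retinoic acid minus IL-1α.

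The genes that build and modify the chains were also measured, each by its brightest tested probe. Of 11 genes of chain linkage and polymerisation all were tested, with 4 higher and 5 lower with retinoic acid and 3 higher and 3 lower with IL-1α. Beside this list and those that follow, 35.4% of all tested probes were called with retinoic acid and 29.3% with IL-1α. Xylt1, which adds the first sugar to the core protein, was detected on all untreated arrays (6.87 ± 0.30, SD, n = 4) and on no retinoic acid array, where it was at least 3.20-fold lower (limma adjusted p = 4.25e-08), and its difference with IL-1α was -0.16. The other xylosyltransferase of the list, Xylt2, was 0.37 higher with retinoic acid (limma adjusted p = 0.0359) and differed by 0.13 with IL-1α. Extl1, an exostosin-like glycosyltransferase, fell by 2.80 on the log2 scale with retinoic acid (limma adjusted p = 6.28e-08) and differed by 0.07 with IL-1α. The chain polymerase Ext1 rose by 0.73 with each treatment. The other polymerase subunit, Ext2, was not called, on a probe detected on 2 of 4 untreated, 2 of 4 IL-1α and 2 of 4 retinoic acid arrays. A change of Ext2 on the undetected arrays cannot be seen.

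Of 16 genes of sulphation and epimerisation 8 were tested, with 3 higher and 3 lower with retinoic acid and 0 higher and 4 lower with IL-1α. The 3-O-sulphotransferase Hs3st3a1 fell from 10.49 ± 0.21 in untreated explants to 8.39 ± 0.13 with IL-1α and 7.56 ± 0.16 with retinoic acid (SD, n = 4). Hs3st3b1 fell from 9.71 ± 0.23 to 7.99 ± 0.11 and 7.26 ± 0.10, and because its sequence is close to that of Hs3st3a1 the probes may not be independent. Another enzyme of this class, Hs3st1, went in opposite directions, with -0.84 with IL-1α (limma adjusted p = 0.00299) and 0.85 with retinoic acid (limma adjusted p = 0.00171). The epimerase Glce differed by -1.22 with retinoic acid and -0.64 with IL-1α. Of the editing enzymes at the cell surface 3 of 4 were tested, and the sulphatase Sulf2 was the only one called, 0.43 higher with retinoic acid.

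Of 10 genes listed for the release of core proteins 8 were tested, with 5 higher and 0 lower with retinoic acid and 1 higher with IL-1α. Their median difference was 0.72 with retinoic acid against 0.02 for all tested probes. The 8 include Adamts4, which was not called against untreated (0.36 with retinoic acid, limma adjusted p = 0.115). The exon that encodes its catalytic domain is deleted in these mice. Mmp14 rose from 11.01 ± 0.44 to 13.08 ± 0.27 with retinoic acid (SD, n = 4), a difference of 2.07 (limma adjusted p = 8.41e-07). Mmp9 rose by 1.58 with retinoic acid and 0.61 with IL-1α, and Mmp2 by 1.01 with retinoic acid. Adamts1 differed by 1.30 with retinoic acid (limma adjusted p = 0.001), on a probe detected on 2 of 4 untreated and 3 of 4 retinoic acid arrays. Notum, listed for a proposed and disputed release of glypicans from their anchor, differed by 0.43 with retinoic acid but was detected on 4 of the 12 arrays only.

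Of 10 partners of the syndecan cytoplasmic tails 8 were tested, with 3 higher and 1 lower with retinoic acid and 1 in each direction with IL-1α. Tiam1, a Rac activator, rose by 1.59 with retinoic acid and 0.82 with IL-1α (limma adjusted p = 6.08e-06 and 0.00227). Of the 5 other proteoglycans that can carry heparan sulphate all were tested. With retinoic acid 1 was higher and 2 lower, and with IL-1α 2 were higher and 1 lower. Perlecan, Hspg2, fell by 1.04 on the log2 scale with retinoic acid (limma adjusted p = 3.1e-05) and by 0.73 with IL-1α, while Cd44 rose by 1.65 with IL-1α (limma adjusted p = 6.02e-07) and differed by 0.01 with retinoic acid.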

How the data were processed

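RNA of 12 explant samples was hybridised to Illumina mouse bead arrays. The values the authors deposited were linear intensities per probe, with neither background subtraction nor normalization. The deposited detection score rose with intensity on every array (Spearman 0.9956 to 0.9988), so it was read as 1 minus a detection p although its column is named a p-value. Bead-summary software is not given in the sources used here, and the labels name limma without a version. Groups, batches and replicate numbers came from the sample labels, and 0 columns were left without a sample.

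Values on the log2 scale came from neqc (limma 3.58.1, R 4.3.3) with an offset of 16, over all arrays together. For a probe to be tested, its detection p had to be under 0.05 on 4 or more arrays, whatever their treatment. Following the study's methods, treatments were compared in a model with a 4-level block of batch and replicate. Batches were compared with terms for treatment and batch, and effects between batches over 6 groups of treatment by batch. P-values are two-sided and adjusted by the Benjamini-Hochberg method at 0.05, and exact permutation tests exchanged the 8 arrays of a comparison. Where a probe was undetected in a whole group, "at least" folds set the brighter mean against the higher, per array, of the lowest detected level and the probe's own. With 4 arrays per treatment, the number of arrays limits precision.

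Named genes were all members with every probe, check genes, the 3 most similar probes, and, from lists of related genes, those called with over 2-fold change, at most 4 per list and comparison. Sulf2, Ext1, Ext2, Xylt2, Hs3st1, Notum and the named markers of cell types were singled out after their values were seen. Members and lists were chosen with earlier results of these data known. Gene symbols are the array's own, and 1 further probe listed under an older symbol of Sdc2 was undetected on all arrays and was not counted as a member. Probe and protein sequences were not used here. The model fits were tested on simulated log2 values, which did not pass through background correction, normalization or the detection filter. Alternatives were no background correction, median scaling, normalization within each batch, an offset of 50, other filters, other blocks and leaving out each array. Median scaling over probes detected on all arrays was added after the data had been seen.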

Additional observations from a re-analysis of the deposited data

Results flagged for a closer look

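In groups of 4 arrays, 48 were examined for an array far from the others, of which chance marks about 1 in 20. The probe ILMN_2635784 of Gpc1 gave 12.48 on the second untreated array of batch 2, with the nearest of the other untreated arrays at 12.83. The probe ILMN_2719860 of Gpc5 gave 4.51 on the second untreated array of batch 1, with the nearest at 4.48, all of them undetected.

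The difference of retinoic acid from IL-1α was not the same in both batches for 2 probes. For Gpc3 it was higher in batch 2 by 0.95 (limma adjusted p = 0.0145), with opposite signs in the batches. For Gpc6 the difference between batches was -0.99 (limma adjusted p = 0.0129), with the same sign in both.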

How the results depend on the processing

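Over all single probes and alternatives, 1105 values stayed on their side of the threshold, 44 were no longer called, 15 became called and 3 reversed. The 3 that reversed changed sign in batch 2 against batch 1 under median scaling. There the median over all tested probes moved from -0.13 to 0.51. Of the 3, only Gpc3 was called in the opposite direction (0.52, limma adjusted p = 0.0269). Sdc3 (0.034, limma adjusted p = 0.819) and the dim Gpc1 probe (0.17, limma adjusted p = 0.229) lost their calls. Median scaling called 5 of the 9 probes between batches, and for a difference of effect between batches it called 2 with IL-1α against untreated and 1 with retinoic acid against IL-1α. Without the filter, the probe of Gpc2, undetected on 10 of the 12 arrays, was also called for a difference of effect between batches. It was 1.655 for retinoic acid against untreated and 1.535 against IL-1α (limma adjusted p = 0.000188 and 0.000149). The Gpc2 differences over both batches were not called in these comparisons (limma adjusted p = 0.209 and 0.201). With each array left out in turn, the number of differences of effect between batches was 0 to 1 for retinoic acid against untreated, 0 to 1 for IL-1α against untreated and 1 to 2 for retinoic acid against IL-1α. With treatment alone in the model, 2 probes were called with IL-1α and 0 between the treatments (5 with retinoic acid). The causes of these changes were not tested. For none of the alternatives, other blocks included, was the share of all tested probes called computed.

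Whether replicate numbers pair the arrays could not be settled, since each treatment has only 2 arrays per batch. Deviations of same-numbered arrays correlated at 0.00266 to 0.062 in batch 1 and -0.108 to 0.391 in batch 2. With no replicate block and batch kept in the model, 7, 7 and 4 probes were called with retinoic acid, with IL-1α and between the treatments, and the added call was Sdc4 with IL-1α (limma adjusted p = 0.0486). Dim probes were limited by background: 7 of the 16 were left untested, and a change below the detection level cannot be seen.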
